A study of Mus musculus with 4 samples.

Results

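Krt79-positive upper hair follicle (uHF) cells were examined in single-cell transcriptomes of mouse epidermis at postnatal day 19. Barcodes below 1200 counts, or above 20% mitochondrial counts, were removed, which left 34150 cells. Members were selected on their counts: at least 2 of Krt79, fewer than 10 of Cst6, none of Lhx2 or Krt75, and fewer than 3 of Slurp1 and Slurp2 together. This gate held 2632 cells, 7.71% of those kept. Control mice were C57BL/6N females with floxed alleles of CerS4 (CerS4 fl/fl) and no K14Cre, and CerS4epi-/- mice carried the same alleles with K14Cre, so that all groups share the floxed gene and only the CerS4epi-/- mice carry the recombinase. The K14 promoter drives Cre in basal epidermal and follicular keratinocytes, and the deletion therefore covers all their progeny rather than the uHF alone. There were 2 mice per genotype, and each mouse was 1 sample with a library of 39231945 to 53106317 counts. The comparison asks how loss of ceramide synthase 4, an enzyme that attaches a fatty acid to a sphingoid base, relates to the number and the transcripts of uHF cells.

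The uHF links the follicle to the interfollicular epidermis (IFE) and includes the junctional zone, the infundibulum and the opening of the sebaceous duct. Keratin-79 marks cells of this canal, which form the lumen through which hair shaft and sebum leave the skin. Cells of this region move from a basal layer that makes keratins 5 and 14 to suprabasal layers that make keratins 1 and 10, as in the IFE, while keratin-17 and Sox9 are shared with other parts of the follicle.

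The 2 control mice shared 0 barcodes among their kept cells, and the 2 CerS4epi-/- mice shared 0, where 87.1 and 77.1 would be shared if barcodes were drawn at random from the 884736 possible ones. Pairs of different genotype shared 64 to 102. If the mice of one genotype were loaded together and separated by sample tags, genotype and cartridge cannot be told apart in any comparison below. Nothing in the labels says more about separate preparations, so p-values measure the spread between these mice only.

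Control 1 gave 510 members of 8480 kept cells and control 2 gave 421 of 9086. CerS4epi-/- 1 gave 922 members of 9017 kept cells and CerS4epi-/- 2 gave 779 of 7567. The median member held 2273 counts in control 1, 2083 in control 2, 2805 in CerS4epi-/- 1 and 2492 in CerS4epi-/- 2, below the medians of 3320 to 4071 in the other kept cells. Just inside the gate, 325 members held exactly 2 Krt79 counts, while 1526 cells that met every other criterion held exactly 1. At the Cst6 limit, 150 members held 8 or 9 counts and 128 otherwise eligible cells held 10 or 11. T cells, which should lack Krt79, gave a measure of Krt79 counts from free RNA or doublets, which were not told apart. These cells had at least 3 counts over 4 T cell markers, at median depths of 1541 to 1906 counts. Those with 2 or more Krt79 counts were 3 of 105 in control 1 (2.86%) and 2 of 66 in control 2 (3.03%). They were 3 of 137 in CerS4epi-/- 1 (2.19%) and 4 of 143 in CerS4epi-/- 2 (2.80%).

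The other uHF markers followed the label. All levels are CPM, the share of the summed counts of a population in a mouse scaled to 1e6, compared here without a test because the members were selected on Krt79. Krt17, a keratin of the follicle and of stressed epidermis, stood at 7598 CPM in the members of control 1, 7550.2 in control 2, 4733 in CerS4epi-/- 1 and 4659 in CerS4epi-/- 2, against 733 to 2838 in the other kept cells. Defb6, a beta-defensin, stood at 2768, 2174, 3107 and 3419 CPM in the same order, against 219 to 1457. Cd200, an immunoregulatory surface protein, was at 200.4, 255, 184 and 179 CPM, and Dpysl3, a cytoskeletal regulator, at 183, 250.0, 150.4 and 118. In all 4 mice each of these genes was higher in the members than in the other cells. Krt17 and Defb6 were higher still in Krt79-positive cells with 10 or more Cst6 counts that met the other criteria. Krt17 was at 13915 to 15088 CPM in those cells and Defb6 at 5694 to 11880 CPM. Cd200 was at 340, 341, 200 and 165 CPM there, and Dpysl3 at 93.0, 105, 91.3 and 68.9 CPM, below the members. A Krt17 count was found in 81.7 to 90.0% of members and a Defb6 count in 64.8 to 82.5%. A Cd200 count was found in 36.5 to 44.4% of members against 5.2 to 9.1% of other cells. Of the bulge markers, Lhx2 and Krt75 were at 0 by selection, and Cd34 was listed at 0 in 3 mice and at 0.378 CPM in CerS4epi-/- 2, against 0.407 to 0.958 CPM in the other kept cells. The summed outer bulge markers were at 132 and 127 CPM in the members of controls and 106 and 102 CPM in those of CerS4epi-/- mice, most of it Nfatc1, against 80.7, 60.0, 130 and 109 CPM in other cells. The summed inner bulge markers were at 206, 201, 169 and 299 CPM in members, mostly Timp3 in controls and Krt6a in CerS4epi-/- mice, against 188, 119, 395 and 841 CPM.

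**Figure D1:**
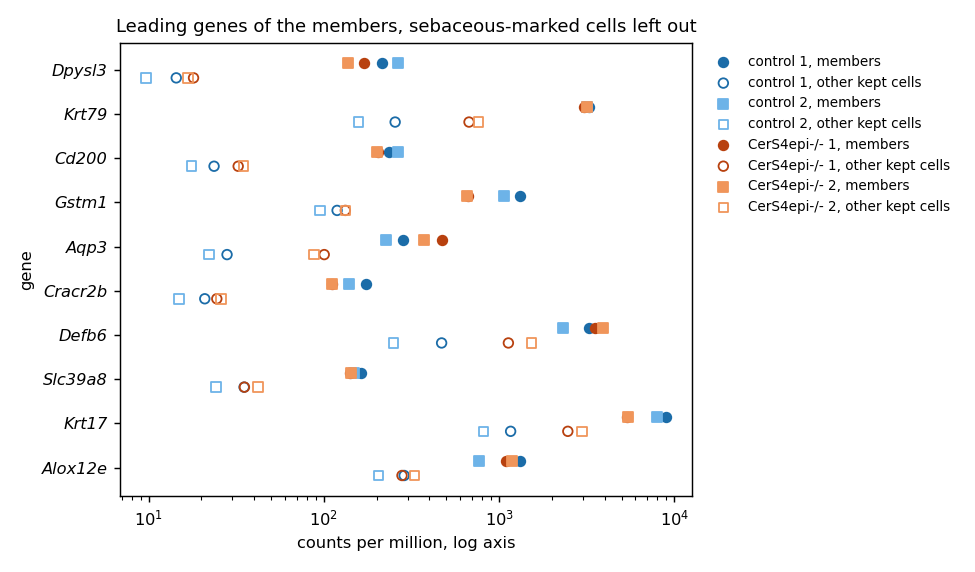
Levels in CPM (log axis) of the 10 genes with the largest mean log ratio of members to other kept cells, after sebaceous-marked cells were left out. Filled symbols are the members and open symbols the other kept cells of each of the 4 mice. The filled and open symbols of each gene are separate in every mouse, with Krt17 in members between 5353 and 8960.4. The genes were chosen for this ratio, and Krt79 among them defines the members, so the separation is not a test.

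The gate also admitted some sebaceous cells. Cells with at least 5 counts over the 6 sebaceous gland markers Scd1, Scd3, Mgst1, Awat1, Awat2 and Mc5r numbered 14 in control 1, 6 in control 2, 28 in CerS4epi-/- 1 and 33 in CerS4epi-/- 2, 81 of all members. With median depths of 10163 to 17610 counts they gave 15.6, 6.64, 12.0 and 14.6% of all member counts, so that control 2 was poorest in them. Summed over the 6 markers, the level was 3918, 595, 1673 and 2461 CPM in all members, with Scd1 the most abundant, and 70.0 to 143 CPM once these cells were left out. Fa2h, which makes hydroxylated sphingolipids in sebocytes, was the leading gene of all members at 1285, 119, 782 and 1125 CPM, and at most 1.0 CPM without them. Leading genes that did not depend on them were Dpysl3, Cd200, Gstm1 (a glutathione transferase), Aqp3 (a glycerol and water channel), Cracr2b, Slc39a8 (a zinc transporter), Sox21, Foxc1 and Sox9 (transcription factors), and Alox12e, a lipoxygenase. Comparisons below are made over all members, and calls that change without sebaceous-marked cells, an analysis chosen after the data were seen, are given beside them. A further 14 members held immune markers. T cell markers summed to 24.1 to 47.5 CPM and Langerhans cell markers to 28.4 to 292 CPM, and the melanocyte, fibroblast and endothelial lists to at most 19.8 CPM in each mouse. Interfollicular suprabasal markers summed to 17425 to 29122 CPM in members, above the uHF list at 10962 to 13653 CPM. They summed to 36558 to 52704 CPM in the other kept cells. Interfollicular basal markers were at 4640 to 6103 CPM and granular ones at 360 to 1966 CPM, also below the other cells. A Krt10 count was found in 69.1 to 87.6% of members and 72.7 to 85.3% of other cells. How much of this is free RNA was not tested.

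Promoter windows of RefSeq are shown for the gene that defines the members, Krt79 (GRCm39 chr15:101837767-101848759, minus strand), and for Defb6 (chr8:19275494-19278225, plus strand), the 2 markers with an entry among the 3 most abundant ones. The windows run from 250 bases before the annotated start to 50 after it in the RefSeq GRCm38.p6 table, and each matched GRCm39 once, at chr15:101848710-101849009 on the minus strand for Krt79 and at chr8:19275244-19275543 on the plus strand for Defb6. Capitals mark AGATAA, the letters bound by GATA factors, which were searched on either strand (TTATCT in reverse complement), Gata6 being a known regulator of the sebaceous duct.
Krt79: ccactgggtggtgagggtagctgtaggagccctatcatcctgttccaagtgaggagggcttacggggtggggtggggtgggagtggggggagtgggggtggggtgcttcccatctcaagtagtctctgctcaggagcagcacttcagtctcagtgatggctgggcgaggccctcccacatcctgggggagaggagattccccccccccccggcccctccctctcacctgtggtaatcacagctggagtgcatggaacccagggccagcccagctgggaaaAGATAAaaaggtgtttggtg
Defb6: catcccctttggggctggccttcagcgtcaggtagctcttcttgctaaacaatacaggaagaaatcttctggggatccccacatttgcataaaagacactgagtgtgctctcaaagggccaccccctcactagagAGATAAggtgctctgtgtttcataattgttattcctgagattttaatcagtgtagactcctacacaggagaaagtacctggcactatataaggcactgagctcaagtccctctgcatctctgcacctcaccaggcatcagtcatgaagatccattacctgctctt
AGATAA began at base 31 after the start of Krt79 and 115 bases before the start of Defb6. Of 32851 RefSeq promoter windows of the same length, 11.2% hold these letters on either strand. The letters TATAAA, searched likewise and held by 13.6% of windows, were in neither. Only these exact letters were searched, and near forms, such as tatataag in the Defb6 window, were not counted.

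The members covered both basal and suprabasal cells. After sebaceous-marked cells were left out, a member was called richer in basal keratins when its Krt5 and Krt14 counts together exceeded those of Krt1 and Krt10. This gave 1076 basal-keratin and 1475 suprabasal-keratin members. In every mouse, the basal-keratin members held more S100a6, Ccnd2 (cyclin D2), Ifitm3, Lamb3 and Col17a1 (components of the attachment to the basement membrane), Apoe, Ccl27a (a skin chemokine) and Plet1 (a surface protein of the upper follicle). S100a6 was at 461, 401, 740.2 and 1382 CPM in basal-keratin members of control 1, control 2, CerS4epi-/- 1 and CerS4epi-/- 2, and at 54.5, 51.9, 97.8 and 74.2 CPM in suprabasal-keratin members. Apoe was at 5046 to 10125 CPM against 984 to 1948 CPM. The suprabasal-keratin members held more Spink5 (a protease inhibitor of the barrier), Klk5 (a kallikrein), Elovl4 (which extends very long fatty acids), Cdsn (corneodesmosin) and Krt77. Spink5 was at 989, 833, 575 and 843 CPM in them and at 152, 158, 81.1 and 52.9 CPM in basal-keratin members. Krt77 was at 5974 to 7143 CPM against 882 to 2234 CPM. These levels are a description of strata chosen after the data were seen.

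Members with more Krt79 held more Krt17 and less Krt15 and Krt5. In control 1, Krt17 was at 3728 CPM in members with 2 to 4 Krt79 counts, 7983 with 5 to 9 and 12494 with 10 or more. In CerS4epi-/- 2 the same 3 classes stood at 1733, 4540.4 and 8394 CPM. Cd200 and Dpysl3 also increased over the classes in all 4 mice, while Krt15, a basal keratin enriched in follicle stem and progenitor cells, and Krt5 decreased. Krt15 in control 1 was at 5479.7, 2996 and 1946 CPM. Defb6 followed no common order, and was highest in the middle class in control 1 and both CerS4epi-/- mice but highest in the lowest class in control 2. Cells with 10 or more Krt79 counts were also the deepest, with median counts of 2968 to 3277 against 1770 to 2453 in the lowest class, and the part of depth in these trends was not tested.

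**Figure D2:**
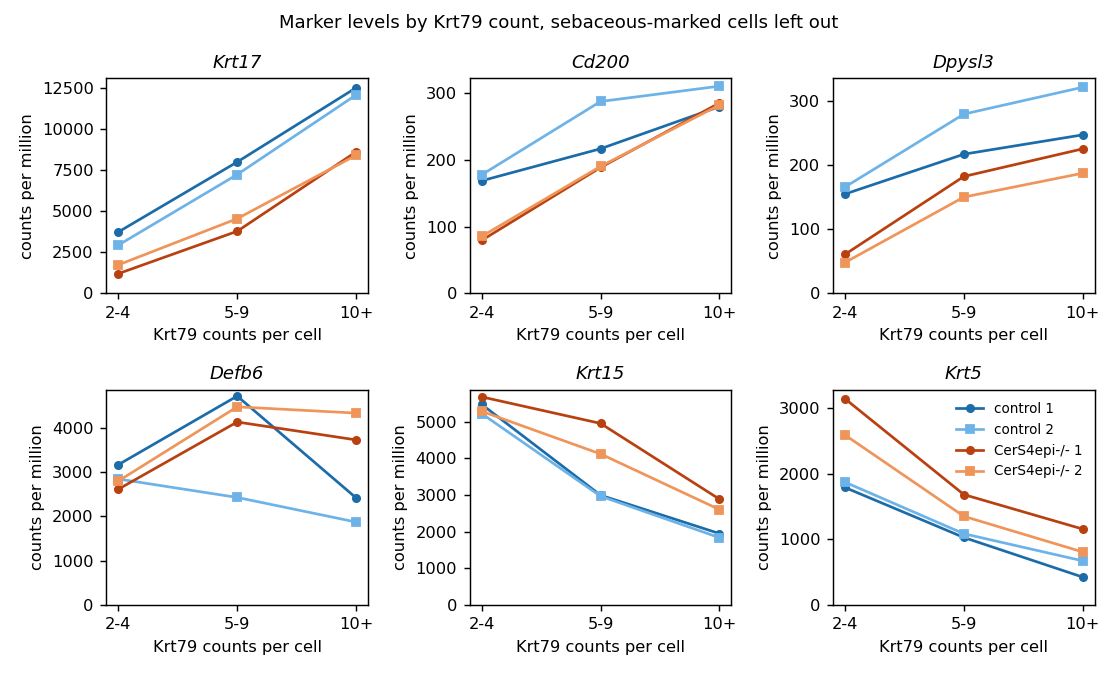
Levels in CPM of 6 genes in members with 2 to 4, 5 to 9 and 10 or more Krt79 counts, 1 line per mouse, sebaceous-marked cells left out. Krt17, Cd200 and Dpysl3 increase from left to right in each mouse and Krt15 and Krt5 decrease, with the CerS4epi-/- lines below both controls for Krt17 at every class.

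Members took a larger share of the kept cells in CerS4epi-/- mice. The share was 6.01% in control 1 (Wilson 95% interval 5.53 to 6.54), 4.63% in control 2 (4.22 to 5.09), 10.2% in CerS4epi-/- 1 (9.62 to 10.9) and 10.3% in CerS4epi-/- 2 (9.63 to 11.0), where the intervals cover counting error only. Both CerS4epi-/- mice lay above both controls. Means were 5.32% ± 0.976 (SD, n = 2) and 10.3% ± 0.0492 (SD, n = 2), a log2 ratio of 0.95 with an exact permutation p of 0.333 (two-sided), the smallest p that 2 mice against 2 can give. After each cell was thinned to 1200 counts the log2 ratio was 0.83. The ratio narrowed to 0.52 when cells with over 10% mitochondrial counts were left out, and the median mitochondrial share of the members was itself 8.25% and 7.45% in controls against 10.6% in both CerS4epi-/- mice. Its part in the share was not tested. A share is relative, and a gain of uHF cells and a loss of other cells cannot be told apart. Cells with 2 or more Krt79 counts before any other criterion made up 12.1 and 8.55% of kept cells in controls and 22.4 and 23.9% in CerS4epi-/- mice.

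Basal-keratin cells were also a larger share of the members in CerS4epi-/- mice. They made up 33.7% of members in control 1, 26.0% in control 2, 48.5% in CerS4epi-/- 1 and 49.2% in CerS4epi-/- 2, sebaceous-marked cells left out. The genotypes did not overlap, and the exact permutation p was again 0.333 (two-sided), the smallest available. Levels summed over all members therefore also carry this difference in keratin stratum, and the calls of the genes with the largest changes are given by stratum below. In the other kept cells Krt14 went from 2019 and 1764 CPM in controls to 2852 and 2629 CPM in CerS4epi-/- mice. Krt10 went there from 17135 and 18408 to 12702 and 11537 CPM. Whether the strata shift by layer or by the level of these keratins was not tested. Tested on their own by edgeR, 18 genes rose and 16 fell of 7731 in basal-keratin members (0.44% called), and 58 rose and 60 fell of 8453 in suprabasal-keratin members (1.4% called). In both strata 18 genes were called.

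**Figure D3:**
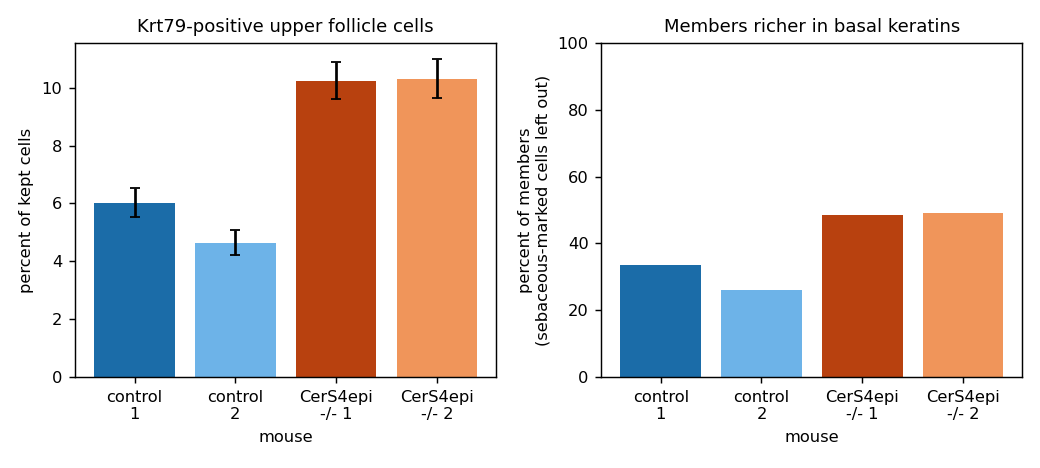
Share of kept cells that were Krt79-positive uHF members, with Wilson 95% intervals (left), and share of members richer in basal than in suprabasal keratins (right), 1 bar per mouse. The CerS4epi-/- bars stand at 10.2 and 10.3% on the left, against 6.01 and 4.63% in controls.

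Cers4 itself could be read in few members. It stood at 391 CPM in control 1, 79.3 in control 2, 34.7 in CerS4epi-/- 1 and 69.5 in CerS4epi-/- 2, and a Cers4 count was found in 1.7 to 3.7% of members. Sebaceous-marked cells held 94.9 to 99.5% of these counts, and without them the level was 1.6 to 4.3 CPM in all 4 mice. Within sebaceous-marked members it was 2503 and 1134 CPM in controls and 278 and 459 CPM in CerS4epi-/- mice, lower in both of the latter. Over all members the log2 fold change was -2.21 (SE 0.65, adjusted p = 0.194, edgeR), so the deletion was not called here. Leaving out 1 mouse gave -2.94 to -0.66, with a call in 1 of these fits, without control 2 (-2.94), and the smallest value without control 1. Whether reads fall inside the deleted exons was not checked.

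Members of CerS4epi-/- and control mice were compared gene by gene with edgeR's quasi-likelihood test on counts summed per mouse. Of 10240 genes tested, 42 rose and 48 fell at a Benjamini-Hochberg adjusted p below 0.05, 0.879% of all genes, with 0.41% called higher and 0.469% called lower. The median log2 fold change of all genes was 0.0086. Without sebaceous-marked cells, 195 rose and 212 fell of 9794 (1.99% and 2.16%), and 84 of the 90 genes called among all members were among these 407, 20.6% of the latter. The counts depended on single mice: they were 423 higher and 398 lower without control 1, 206 and 306 without control 2, 39 and 20 without CerS4epi-/- 1, and 16 and 6 without CerS4epi-/- 2. At a filter of at least 2000 counts per cell, 11 rose and 14 fell. In 5 draws of 421 members from each mouse, the calls numbered 11 to 78 higher and 10 to 91 lower. Genotypes did not overlap for 47.5% of all genes tested.

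The gene with the largest rise was Stra6 (chr9:57970967-58063543), the membrane receptor that takes up retinol. It had 0 counts in the members of both control mice and stood at 98.8 CPM in CerS4epi-/- 1 and 63.8 CPM in CerS4epi-/- 2. Against a floor of 3 counts over both control mice, its level was at least 80.6-fold higher (adjusted p = 0.0171, edgeR), and it passed the test under each of 21 alternatives fitted over both layers together. It was also near 0 in the other kept cells of controls, at 0.1 CPM in each mouse, and at 17.8 and 10.4 CPM in CerS4epi-/- mice. Basal-keratin members held 164 and 107 CPM and suprabasal-keratin members 68.9 and 47.6 CPM in the CerS4epi-/- mice. It belongs to a list of 15 retinoid genes, of which 8 were tested, 1 rose and 0 fell. Over all genes 0.41% were called higher and 0.469% lower. The median log2 of the list was 0.10 against 0.0086 over all genes. Cyp26b1, which degrades retinoic acid, was at 11.0 and 14.4 CPM in controls and 5.17 and 0.755 CPM in CerS4epi-/- mice, which did not pass the test (adjusted p = 0.223, edgeR).

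Krt6a, a keratin of the inner bulge and of stressed epidermis, stood at 19.5 CPM in control 1, 2.40 in control 2, 127 in CerS4epi-/- 1 and 265 in CerS4epi-/- 2. Both CerS4epi-/- mice lay above both controls, and it rose with a log2 of 4.03 (SE 0.60, adjusted p = 0.0395, edgeR), not past the threshold without CerS4epi-/- 2 (adjusted p = 0.0541). Leaving out 1 mouse gave log2 values of 3.305 to 6.279, the largest without control 1. A count was found in 1.4 and 0.7% of members in controls and 7.8 and 9.8% in CerS4epi-/- mice, where a cell without a count may still express it at these depths. In basal-keratin members it was at 65.2, 0, 276 and 657 CPM and in suprabasal-keratin members at 5.14, 3.31, 30.6 and 15.3 CPM, with log2 values of 3.598 and 2.461 that both passed. Krt6a shares much of its sequence with other type II keratins, and counts split between them are uncertain. Krt17 fell by 0.69 on the log2 scale (SE 0.10, adjusted p = 0.0393, edgeR), and by 0.46 in basal-keratin members (adjusted p = 0.119) and 0.47 in suprabasal-keratin members (adjusted p = 0.0044). It did not pass the test without CerS4epi-/- 1 or without CerS4epi-/- 2. The third stress keratin tested, Krt16, was at 33.5, 15.2, 87.3 and 41.2 CPM and did not pass (adjusted p = 0.224, edgeR), but passed as higher without sebaceous-marked cells (log2 1.36, adjusted p = 0.0427) and in suprabasal-keratin members (adjusted p = 0.0107).

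Chd9, a chromodomain helicase, was the most abundant of the largest rises, at 211 and 207 CPM in controls and 660.3 and 976 CPM in CerS4epi-/- mice (log2 1.96, SE 0.19, adjusted p = 0.0185, edgeR). It rose in basal-keratin members by a log2 of 2.07 and in suprabasal-keratin members by 0.99, and was also higher in the other kept cells, at 418 and 610.4 CPM against 164 and 159.6. Car12, a carbonic anhydrase, went from 22.5 and 14.4 to 112 and 81.6 CPM. Cpe, a carboxypeptidase, went from 14.6 and 13.6 to 58.9 and 103 CPM. Spock2, a matrix proteoglycan, went from 7.31 and 6.41 to 37.0 and 71.8 CPM. Tpm2, a tropomyosin, went from 16.4 and 12.0 to 54.0 and 77.1 CPM, and did not pass without CerS4epi-/- 2 (adjusted p = 0.0502). In each the 2 genotypes were separate. By stratum, Spock2 passed in both. Car12 and Cpe passed in basal-keratin members but not in suprabasal-keratin ones (adjusted p = 0.102 and 0.312), where Cpe was at 11.3, 7.73, 15.9 and 20.2 CPM, a log2 of 0.90 against 2.49 over all members. Tpm2 passed in suprabasal-keratin members and not in basal-keratin ones (adjusted p = 0.0544). Pdss1, which builds the side chain of coenzyme Q, and Lpl, lipoprotein lipase, were also among the 10 largest rises, but 83.3 to 97.3% of their counts lay in sebaceous-marked cells. Without those cells Pdss1 was at 1.4 to 5.5 CPM and was not tested, and Lpl did not pass (adjusted p = 0.0635).

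Timp3 (chr10:86136236-86185371), an inhibitor of matrix metalloproteinases that is high in the inner bulge, was the steadiest fall. It stood at 185 CPM in control 1, 199 in control 2, 42.2 in CerS4epi-/- 1 and 31.4 in CerS4epi-/- 2. The genotypes were far apart, and the log2 fold change was -2.38 (SE 0.17, adjusted p = 0.0054, edgeR). It passed the test under each of the same 21 alternatives and in both strata, with -1.80 in basal-keratin and -2.41 in suprabasal-keratin members. In the Cst6-high Krt79-positive cells it stood at 469 and 391 CPM in controls and at 42.8 and 49.5 CPM in CerS4epi-/- mice. Ifitm6 fell by 4.24 on the log2 scale, from 62.1 and 95.3 CPM to 4.02 and 4.15 CPM, with 36.4 to 82.4% of its counts in sebaceous-marked cells. Without them it was at 30.3 and 18.0 CPM in controls and 2.6 and 3.1 CPM in CerS4epi-/- mice, and passed in suprabasal-keratin members, the stratum in which it was tested. The remaining 8 of the 10 largest falls were Tspan8 (a tetraspanin), Lypd5, Cnfn (cornifelin), Anxa9 (an annexin), Sh3kbp1 (an adaptor protein), Cldn23 (a claudin), Cdsn and Skint2, with log2 fold changes of -1.97 to -1.30. Without CerS4epi-/- 2, Tspan8, Anxa9, Sh3kbp1, Cldn23, Cdsn and Skint2 did not pass (adjusted p = 0.0532 to 0.182), and Cldn23 did not pass without CerS4epi-/- 1 either (adjusted p = 0.0719). By stratum, Tspan8, Lypd5, Cnfn, Anxa9 and Sh3kbp1 passed in suprabasal-keratin members, while none of the 8 passed in basal-keratin members, where Tspan8 was not tested and the other 7 had log2 values of -2.60 (Cnfn, adjusted p = 0.051) to -1.16 (Cdsn), so that the falls are not shown to differ between the layers. Cdsn, which holds cornified cells together, was at 353, 451, 152 and 147 CPM, lower in both CerS4epi-/- mice, and in neither stratum did it pass the test (adjusted p = 0.0582 and 0.0611).

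**Figure D4:**
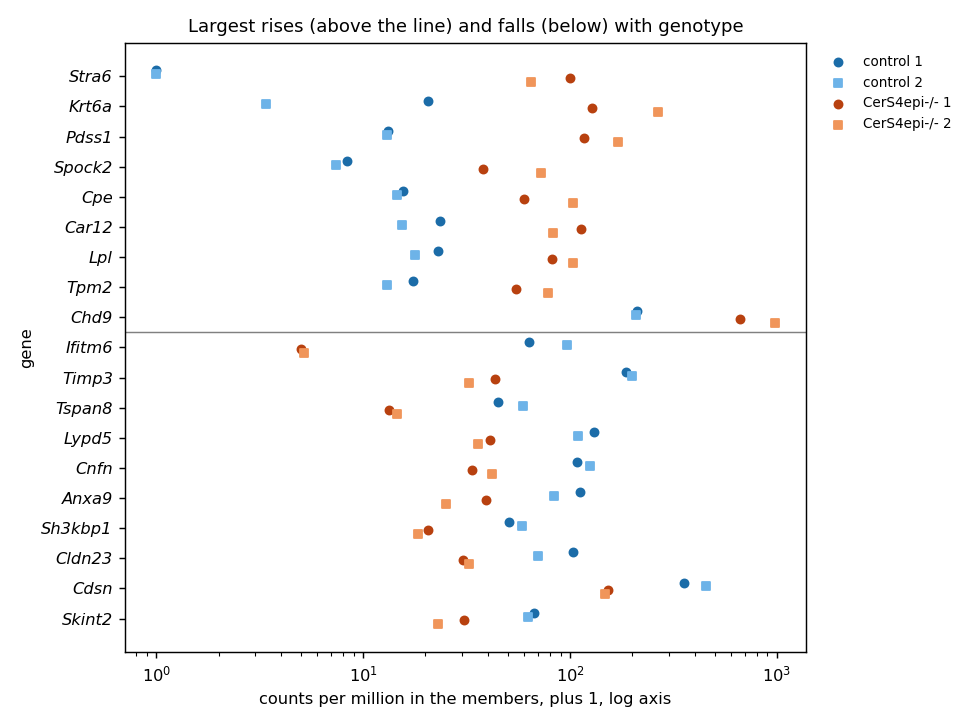
CPM plus 1 (log axis) in the members of each mouse for 9 of the 10 largest rises (above the line) and the 10 largest falls (below) in CerS4epi-/- mice. The control and CerS4epi-/- symbols do not overlap for any of the 19 genes, which was a condition for their choice, and Stra6 is at 0 in both controls.

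Of 24 cornified envelope genes in the files, 16 were tested, 0 rose and 3 fell (Ivl, Cnfn and Sbsn). The median log2 of those tested was -0.50 against 0.0086 over all genes. For this and the later lists, the shares over all genes were 0.41% called higher and 0.469% called lower. They were 1.99% and 2.16% when sebaceous-marked cells were left out. Ivl, the cross-linked scaffold protein involucrin, was at 286 and 261 CPM in controls and 126 and 141 CPM in CerS4epi-/- mice (log2 -1.04, SE 0.12). Without sebaceous-marked cells 6 fell, the others being Hrnr, Krtdap and Dmkn, where 2.16% of all genes were called lower. The list's largest change was not called. Sprr1b, an envelope precursor, was at 7.31, 13.6, 91.0 and 18.9 CPM (log2 2.47, adjusted p = 0.227, edgeR), and passed as higher in suprabasal-keratin members (log2 2.69, adjusted p = 0.0207). Leaving out 1 mouse moved its log2 over all members from 0.88 to 3.15, with the smallest value without CerS4epi-/- 1. Of 9 tested keratins and related genes of basal and suprabasal layers, 0 passed the test in either direction among all members. Without sebaceous-marked cells Krt5, Krt14 and Krt15 rose and Krt77 and Krtdap fell. Krt14 was at 1403, 1135, 2117 and 2053 CPM, with a log2 of 0.71 in all members (adjusted p = 0.0713, edgeR). The log2 of Krt14 was 0.76 without sebaceous-marked cells. By stratum it did not pass, with 0.30 in basal-keratin (adjusted p = 0.298) and -0.05 in suprabasal-keratin members (adjusted p = 0.899). Krt14 counts help to define both strata, so these values are constrained by that choice and no conclusion is drawn from them. Krtdap had -0.64 without sebaceous-marked cells. It passed in basal-keratin members (-0.99, adjusted p = 0.0040) but not in suprabasal-keratin members (-0.28, adjusted p = 0.0519). The list of kallikreins, cathepsins and their inhibitors had 18 tested genes, of which 1 rose (Klk10, not past the threshold without CerS4epi-/- 2, adjusted p = 0.153) and 0 fell. Without sebaceous-marked cells Klk10 and Cstb rose and Klk5, Spink5 and Serpinb5 fell. Klk10 did not pass by stratum. Its log2 was 2.21 in basal-keratin and 1.61 in suprabasal-keratin members (adjusted p = 0.0733 and 0.0811), against 2.06 over all members. Of 24 tested junction genes 0 rose and 1 fell (Cdsn), with a median of -0.12. Without sebaceous-marked cells Dsg3 (log2 1.33) and Cdh3 (1.43) rose and Dsg1a and Cdsn fell. Neither rise passed by stratum. Dsg3 had 0.94 in basal-keratin and 0.77 in suprabasal-keratin members (adjusted p = 0.228 and 0.4975). Cdh3 had 1.05 and 0.94 (adjusted p = 0.297 and 0.453).

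The uHF and isthmus list had 14 tested genes, of which 1 rose (Lrig1) and 2 fell (Krt17 and Teddm3). Its median log2 was -0.19, and over all genes 0.41% were called higher and 0.469% lower. Teddm3 did not pass without CerS4epi-/- 1 (adjusted p = 0.137) or without CerS4epi-/- 2 (adjusted p = 0.133). Lrig1, a brake on growth factor receptors that marks junctional zone stem cells, was at 44.5 and 42.5 CPM in controls and 84.7 and 101 CPM in CerS4epi-/- mice (log2 1.09, SE 0.15, adjusted p = 0.0345, edgeR). It did not pass without CerS4epi-/- 2 (adjusted p = 0.219) or in basal-keratin members (adjusted p = 0.249). Defb6, Cd200 and Dpysl3 did not pass the test, with log2 fold changes of 0.40, -0.33 and -0.69. Without sebaceous-marked cells 3 genes of the list rose (Lrig1, Gata6 and Krt15) and 3 fell (Krt17, Teddm3 and Dpysl3). The shares over all genes were then 1.99% and 2.16%, so these counts and those among all members have different backgrounds. Dpysl3 had a log2 of -0.63 there (adjusted p = 0.0179, edgeR). It also passed in suprabasal-keratin members (-0.59, adjusted p = 0.0286) but not in basal-keratin members (-0.39, adjusted p = 0.534). Of 12 tested bulge and follicle lineage genes 1 fell (Timp3) and 0 rose, and without sebaceous-marked cells Postn and Runx1 rose and Timp3, Nfatc1 and Hopx fell. Postn, periostin, stood at 1.22 and 0.801 CPM in controls and 15.5 and 7.18 CPM in CerS4epi-/- mice (log2 3.42, adjusted p = 0.0945, edgeR), and passed without sebaceous-marked cells (adjusted p = 0.0103). Nfatc1, a regulator of stem cell quiescence, was at 121, 111, 77.5 and 79.7 CPM (log2 -0.57, adjusted p = 0.100), and passed as lower without sebaceous-marked cells (adjusted p = 0.0221). Sox9 was at 447, 419, 379 and 353 CPM (log2 -0.25, adjusted p = 0.383), and passed as lower in suprabasal-keratin members (log2 -0.81, adjusted p = 0.0021), with 0.26 in basal-keratin members (adjusted p = 0.592). Plet1, at 96.9, 66.5, 107 and 128 CPM, and Sprr1a, an envelope precursor at 1201, 764, 719 and 821 CPM, did not pass.

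No gene of the Wnt lists passed the test among all members. Wnt5a was at 2.44, 0.801, 4.02 and 1.13 CPM and Lef1 at 0, 0.801, 1.15 and 0, and neither was tested because of low counts. Tcf7l2 was at 28.6, 24.0, 36.5 and 39.7 CPM (log2 0.51, SE 0.18, adjusted p = 0.264), Axin2 at 61.5, 72.9, 64.6 and 60.8 CPM (log2 -0.10, SE 0.15, adjusted p = 0.818) and Ccnd1 at 39.6, 48.1, 52.0 and 38.9 CPM (log2 0.07, SE 0.21, adjusted p = 0.917), all by edgeR. Of 13 canonical Wnt targets and inhibitors and 22 genes of noncanonical Wnt and calcium signalling tested, 0 passed in either direction. Over all genes 0.879% were called, so 0 calls in lists this short lies near that share. Fzd6, Vangl1 and Myc passed as higher and Nfatc1 as lower without sebaceous-marked cells, where 1.99% and 2.16% of all genes did.

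Of 36 tested sphingolipid genes 0 passed among all members (median log2 -0.19), where 0.879% of all genes passed. Elovl4, Elovl6 and Elovl7 passed without sebaceous-marked cells, 1 as a rise and 2 as falls. The shares over all genes were then 1.99% as rises and 2.16% as falls. Of 22 sebaceous lipid genes 1 fell, Dgat2, the last enzyme of triglyceride synthesis, from 207 and 204 CPM to 109 and 113 CPM. Without sebaceous-marked cells Scd2 rose and Dgat2 and Cyp2b19 fell, leaving out the genes whose counts marked those cells. Of 19 cholesterol synthesis genes 0 passed. In the glutathione and NRF2 list 21 genes were tested, 0 rose and 1 fell, while without sebaceous-marked cells Gpx4, Aldh3a1 and Mgst3 rose and Gstm1 and Gstm5 fell. The fall over all members was Gstm1, at 1109, 1010.4, 585 and 563 CPM (log2 -0.89, SE 0.11, adjusted p = 0.0308, edgeR), which did not pass without CerS4epi-/- 1 or without CerS4epi-/- 2. Members of the Gstm family are similar in sequence, and counts split between them are uncertain.

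Lcn2, lipocalin-2, an iron-binding defence protein, had 0 counts in both controls and stood at 26.4 and 19.3 CPM in CerS4epi-/- mice, at least 22.5-fold higher against the floor of 3 counts over both controls, the 1 rise among 7 tested antimicrobial genes. Much of it lay in sebaceous-marked cells. Without them it was at 7.502 and 14.6 CPM in CerS4epi-/- mice and still passed as higher (adjusted p = 0.0065, edgeR). In these mice it was at 14.6 and 30.4 CPM in basal-keratin and 1.77 and 1.61 CPM in suprabasal-keratin members. It did not pass in basal-keratin members (adjusted p = 0.0859). Over all genes 0.41% were called higher among all members. Ccl2, a monocyte chemokine, was at 0.609, 2.40, 14.1 and 18.5 CPM, the 1 rise among 13 epithelial cytokines and chemokines, not past the threshold without either CerS4epi-/- mouse, and without sebaceous-marked cells Ccl27a and Cxcl1 rose as well. In the same order, Langerhans cell markers summed to 144, 292, 28.4 and 239 CPM in the members and T cell markers to 47.5, 27.2, 24.1 and 34.4 CPM, so that the genotypes overlapped in both. Actn1, an actin cross-linker, at 70.7, 62.5, 148 and 182 CPM, and Tpm2 rose among 26 cytoskeletal genes, joined by Tagln2 and Flna without sebaceous-marked cells. Actn1 did not pass without CerS4epi-/- 2 (adjusted p = 0.0916) or in either stratum (adjusted p = 0.0826 and 0.241), with log2 values of 1.14 without that mouse, 1.18 in basal-keratin and 0.75 in suprabasal-keratin members against 1.30 over all members. Of 13 interferon and antigen presentation genes, 14 matrix adhesion genes, 21 dissociation and immediate early genes and 16 cell cycle genes, 0 passed in either direction, with medians of 0.17, 0.42, -0.06 and 0.62. The share called over all genes was 0.879%. Without sebaceous-marked cells Ier3 rose (log2 0.95) and Hspb1 fell (-0.39) among the immediate early genes. Neither passed by stratum. Ier3 had 0.58 in basal-keratin and 0.55 in suprabasal-keratin members (adjusted p = 0.406 and 0.476). Hspb1 had -0.015 and -0.35 (adjusted p = 0.990 and 0.102).

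The genotype difference in the members was tested against that in the 31518 other kept cells, with the mouse as a block. Of 15283 genes, 20 differed towards higher in members and 208 towards lower, 1.49% in all (118 and 344 without sebaceous-marked cells). The other cells were not free of the uHF programme, since 6.42 and 4.11% of them in controls and 13.5 and 15.2% in CerS4epi-/- mice held 2 or more Krt79 counts. Krt17 was at 1026 and 733 CPM in other cells of controls and 2314 and 2838 in CerS4epi-/- mice, and its difference in members was lower by 2.27 on the log2 scale (adjusted p = 6.9e-05, edgeR). Sox9, Sprr1a and Plet1 likewise had lower differences in members, of -1.84, -2.44 and -1.39 log2 (adjusted p = 0.000422, 3.19e-05 and 0.000995, edgeR). Timp3 fell further in members than in other cells, by 1.90 more on the log2 scale (adjusted p = 0.0028, edgeR). Among the 5 largest differences towards higher were Cavin1, a caveolar coat protein, Scin, an actin-severing protein, Gas1, a Hedgehog co-receptor, and Psat1, of serine synthesis. Gas1 was at 23.8, 19.2, 65.2 and 69.1 CPM in members and 57.5, 62.1, 86.3 and 90.5 CPM in other cells, a difference of 1.04 (adjusted p = 0.0234, edgeR). Cavin1 was at 18.3, 32.9, 69.8 and 71.4 CPM in members and stayed between 84.2 and 95.6 CPM in other cells. By stratum of the members, Gas1 rose in basal-keratin members (log2 1.58, adjusted p = 0.0147, edgeR) but did not pass in suprabasal-keratin ones (0.61, adjusted p = 0.407). Cavin1, Scin and Psat1 passed in neither stratum. Their log2 values were 1.07, 0.67 and 0.33 in basal-keratin and 0.83, 0.55 and 0.46 in suprabasal-keratin members. The difference from other cells was not tested by stratum.

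The nearest population, Krt79-positive cells with 10 or more Cst6 counts that met the other criteria, numbered 351 and 256 in controls and 762 and 775 in CerS4epi-/- mice. Of 10678 genes, 71 differed towards higher in members and 227 towards lower, 2.79% in all (141 and 281 without sebaceous-marked cells). Slc39a8 was at 138, 141, 126 and 122 CPM in members, while in Cst6-high cells it went from 127 and 159 CPM in controls to 31.1 and 29.0 CPM in CerS4epi-/- mice, a difference of 1.95 on the log2 scale (adjusted p = 0.000211, edgeR). Fst, the activin antagonist follistatin, was at 93.2, 61.7, 68.9 and 54.8 CPM in members and went from 205 and 195 to 57.9 and 40.5 CPM in Cst6-high cells, a difference of 1.58 (adjusted p = 0.00192, edgeR). Krt6a went the other way. In Cst6-high cells it was at 17.7 and 8.5 CPM in controls and 1727 and 2330.3 CPM in CerS4epi-/- mice, and its rise in members was smaller by 3.34 on the log2 scale (adjusted p = 0.0032, edgeR). Krt14 and Sprr1a also had lower differences in members, of -1.48 and -1.43. Stra6 and Timp3 had the same direction in both populations, and for neither was a difference between the populations called (adjusted p = 0.624 and 0.121).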

How the data were processed

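Per the methods and labels, back skin cells were tagged, captured on BD Rhapsody and sequenced. The authors trimmed reads with fastp 0.23.2 and mapped them with STAR 2.7.10a to GRCm39, distributing multimapping reads by expectation maximisation, and deposited unfiltered estimated counts per gene and barcode (4.54 to 4.81% of entries not whole). They set 1200 counts and 20% mitochondrial counts as limits, used here too. Counts were rounded and summed per mouse, then fitted in R 4.3.3 with edgeR 4.0.16 (TMM, filterByExpr, genotype alone), with DESeq2 1.42.0 as an alternative. The scripts were tested on simulated data. Interaction tests used mouse as a block. Genes named were the 5 markers, 13 genes of the study, the 10 largest called rises and falls with separate genotypes and at least 50 CPM in one of them, up to 3 genes with the largest change per list, the 20 leading genes and the 5 largest interaction differences each way, without genes that are not reported here, and others named for their calls or levels were chosen after their values were seen. The members and lists were chosen with earlier results of these data known. Alternatives were other limits, thinning, equal cell numbers, left-out mice, a replicate block and DESeq2. The sebaceous and keratin strata and further draws of equal cell numbers were added after the data were seen. No doublet caller was run, so doublets remain. Python 3.11.15 was used for sums. A share of 1 mouse has a Wilson 95% interval.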

Additional observations from a re-analysis of the deposited data

Results flagged for a closer look

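The following differences between populations were tested as interactions (edgeR, adjusted p below 0.05) and are log2 values of the genotype difference in members minus that in the other population. Against the other kept cells they were 2.20 for Pdss1, 1.35 for Cavin1, 1.04 for Scin, 1.04 for Gas1 and 0.89 for Psat1 towards higher. Towards lower they were -6.89 for Ces1d, -6.28 for Cyp2g1, -5.85 for Elovl3, -5.73 for Fa2h and -4.83 for Cidea. The direction turned for Cyp2g1 without control 1 (9.48) and for Elovl3 without sebaceous-marked cells (4.75). The 5 genes towards lower are sebaceous or lipid genes whose level in members lay in sebaceous-marked cells, at most 1.8 CPM each without them, and the other cells of controls held at most 0.4 CPM of each. Without sebaceous-marked cells Pdss1 did not pass (1.44, adjusted p = 0.427).

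Against the Cst6-high Krt79-positive cells the differences were 2.85 for Lce1c, 2.37 for Slc16a1, 1.95 for Slc39a8, 1.68 for Hlf and 1.58 for Fst towards higher. Lce1c rested on CerS4epi-/- 1, at 94.2 CPM in members against 9.14 to 12.1 CPM in the other mice, and gave 1.62 without it (adjusted p = 0.220). Towards lower they were -12.16 for Fa2h, -11.11 for Ces4a, -10.74 for Awat1, -10.03 for Cidea and -9.88 for Ces1d. All 5 were at 0 in the Cst6-high cells of both controls, so the fitted sizes depend on the prior count and are not bounds. In Cst6-high cells of CerS4epi-/- mice, Fa2h stood at 263 and 269 CPM and Ces4a at 148 and 143 CPM.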

How the results depend on the processing

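Numbers of genes called in the members were 42 higher and 48 lower. They were 381 and 366 without a filter on low counts, 11 and 14 at 2000 counts per barcode, 18 and 21 at 4 Krt79 counts, 17 and 6 at fewer than 3 Cst6 counts, 84 and 88 after thinning to 1200 counts, and 274 and 285 without the 5% deepest members. With sebaceous-marked cells left out they were 195 and 212, and with immune-marked ones also left out 187 and 202. Fewer were lower at 10% mitochondrial counts (24) and more by DESeq2 (74). Basal-keratin members gave 18 and 16. Leaving out 1 mouse gave 16 to 423 higher and 6 to 398 lower. In 5 draws of equal numbers of members per mouse, 4 of them added after single draws had been seen to differ, the calls were 14 and 16, 71 and 68, 78 and 91, 27 and 29, and 11 and 10. A replicate block gave 24 and 19, while mice with the same number did not deviate together (r = -0.10), so the numbers do not pair them. Against other cells (20 higher, 208 lower) the counts were 140 and 509 without a filter, 118 and 344 without sebaceous-marked cells, 116 and 374 without immune-marked ones too, 9 higher at 2000 counts, and 50 to 78 and 150 to 299 without 1 mouse. Against Cst6-high cells (71 higher, 227 lower) they were 151 and 561 without a filter, 141 higher without sebaceous-marked cells, 146 without immune-marked ones too, 175 at 10% mitochondrial counts, 46 at 2000 counts, and 29 to 138 and 121 to 339 without 1 mouse. The log2 ratio of shares (0.95) was 0.52 at 10% mitochondrial counts, 1.30 at 2000 counts and 0.77 to 1.15 without 1 mouse. The causes were not tested.

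Log2 fold changes that changed sign, for genes not called among all members except in the last sentence, were as follows. In basal-keratin members they were 0.23 for Axin2, -0.34 for Ccnd1, 0.26 for Sox9 and -0.24 for Psmb8. In suprabasal-keratin members they were -0.59 for Plet1, -0.23 for Ccnd1, -0.05 for Krt14 (whose counts help to define this stratum), 0.10 for Pglyrp4, 0.60 for Elovl5, 0.92 for Sc5d and -0.063 for Itgb1. Leaving out 1 mouse gave -0.17 to 0.25 for Ccnd1 (-0.09 without control 1, -0.17 without CerS4epi-/- 1), -6.96 to 2.71 for Scd3, -2.78 to 2.34 for Elovl5, -1.52 to 0.22 for Sc5d and -0.89 to 0.27 for Lgr6, all positive only without control 1, -0.24 to 0.026 for Axin2, positive only without control 2, -0.57 to 3.10 for Lce1a1, negative only without CerS4epi-/- 1, and -0.086 to 0.56 for Psmb8, negative without control 2 and without CerS4epi-/- 1. At 10% mitochondrial counts they were -0.17 for Ccnd1 and -1.91 for Elovl3. Without sebaceous-marked cells they were 0.30 for Elovl5 and 0.52 for Sc5d, and without immune-marked ones too 0.38 and 0.51. Without the 5% deepest members they were 0.60 for Cers4, -0.057 for Lce1a1, 0.92 for Elovl5 and 0.39 for Sc5d. The draws of equal numbers gave -0.073 for Ccnd1 and -0.974 for Lce1a1 (draw 1), 0.15 and 0.074 for Lgr6 (draws 2 and 5) and -0.028 and -0.034 for Psmb8 (draws 1 and 4). Thinning gave 0.047 for Axin2. The difference from other cells ranged from -7.69 to 9.48 for Cyp2g1 without 1 mouse, positive only without control 1, and turned to 4.75 and 4.73 for Elovl3 without sebaceous-marked cells and without immune-marked ones too.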
